A study of Bos taurus
Mus musculus and Bos taurus and Mus musculus with 5 samples.

Results

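Bovine transcripts of heterokaryons sampled 48 h after cell fusion were compared with those sampled 24 h after fusion. A heterokaryon is a cell that holds the separate nuclei of 2 fused cells, here a bovine fetal fibroblast and a C57BL/6 mouse embryonic stem cell. The genes described are the 6938 of 13923 in the bovine table that reached 10 RPM (reads scaled to 1e+06 bovine reads of a library) at 48 h or at 24 h. Just inside this limit the lowest member stood at 10.2 RPM, and just outside it the highest gene left out stood at 9.76 RPM. The level in unfused bovine fetal fibroblasts, called bFF, tells whether a difference went toward or away from the starting cell. Each group was 1 library of 200 sorted cells: heterokaryons at 48 h, heterokaryons at 24 h and bFF, with heterokaryons at 72 h as a later level and unfused mouse embryonic stem cells (mESC) as a gauge of wrongly assigned reads. All bovine nuclei came from 1 male fetus of about gestation day 60, so the spread between animals was not sampled. The heterokaryons had been co-cultured for 4 h, treated with polyethylene glycol and DMSO for 2 min and kept at 37 °C in stem cell medium. That medium left out 1 µM PD0325901, which inhibits MEK, and 3 µM CHIR99021, which inhibits GSK3, both present while the stem cells were grown on irradiated mouse feeder fibroblasts before fusion. Fibroblasts were grown at 38.5 °C in fibroblast medium, so bFF differs from both heterokaryon groups in medium and temperature as well as in fusion.

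A fibroblast builds and pulls on its surrounding matrix. It carries actin stress fibres, secretes collagens and growth factor binding proteins, and answers injury with a wave of immediate-early transcription factors followed by NF-kappaB targets such as chemokines. Cells that enter the cycle express replication genes first, under E2F factors, and mitotic genes later, under B-MYB and FOXM1. Fusion with a stem cell exposes the fibroblast nucleus to the cytoplasm and the pluripotency factors of its partner while the nuclei remain apart.

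With 1 library a side no test is possible, and no p-value is given. Every fold below is a ratio of RPM with a 95% counting interval in parentheses, which covers sampling of reads only and not the spread between cultures, and reads copied by PCR are not independent molecules. Counts of genes past 2-fold or 4-fold use log2(RPM + 1), which understates changes of low genes, and log2 values are on that scale. The bovine reads numbered 1331989 at 48 h and 982769 at 24 h, against 2634269 in bFF, so 1 read was worth 0.751 RPM at 48 h and 1.02 RPM at 24 h, and equal counts of reads mean a lower level at 48 h. Counts of 1 never occur in the files, so a 0 may stand for 1 read. Wrongly assigned mouse reads would make up an estimated 2.30% of bovine reads at 48 h and 4.38% at 24 h, and a gene's own estimate is given where it exceeds 10%. All 10 fibroblast markers had reads in both libraries (20963 RPM summed at 48 h, 18433 at 24 h, 37465 in bFF). Of other cell types, SOX2 and NANOG (stem cells), CDH5, KDR and VWF (endothelium), MYOD1 and MYOG (muscle), HBB and PTPRC (blood), KRT5 and ESRP1 (epithelium) and SOX10 (neural) had 0 reads at both times. Summed epithelial markers stood at 5.26 RPM at 48 h and 29.5 RPM at 24 h, endothelial markers at 4.50 and 21.4 RPM at 48 and 24 h, and blood markers, by HBA alone, at 66.8 RPM at 48 h and 91.6 RPM at 24 h. Neural markers, by TUBB3 alone, stood at 39.0 RPM at 48 h, 45.8 RPM at 24 h and 9.87 RPM in bFF. Muscle markers, by MYF5 alone, stood at 12.8 RPM at 48 h and 8.14 RPM at 24 h. The part of wrong assignment and of these other cell types in the differences below was not tested beyond the values given. Fewer cells with a transcript and less of it per cell cannot be told apart in pooled cells. RPM is not divided by gene length, so levels are compared between libraries and not between genes.

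At 48 h the bovine transcripts held less of several chemokines, immediate-early factors, DNA replication genes, IGF2 and H19 and several complement genes than at 24 h, and more of actin cytoskeleton and mitotic genes. Of the 6938 genes, 304 were at least 2-fold higher at 48 h (4.38% of those measured) and 740 were at least 2-fold lower (10.7%). At least 4-fold, 39 were higher (0.562%) and 145 lower (2.09%), and at least 8-fold 12 were higher and 44 lower. In 38 of the 304 and 109 of the 740 the counting interval of the ratio still included 1, and wrongly assigned reads would exceed 10% in 38 and 99. At 48 h 31 of the lower genes had 0 reads, and at 24 h 10 of the higher genes did. With the estimated wrongly assigned reads subtracted, 307 genes were higher and 749 lower. The median gene stood at -0.14 (log2), and 90% of genes lay between -1.45 and 0.93. Scaling by TMM or by DESeq2 size factors moved this median to 0.02 and gave 414 higher and 533 lower genes, so 43.7% of the 2-fold genes were higher with these factors and 29.1% with library totals. Lists of genes are therefore read below against the median of all genes rather than against 0.

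**Figure D1:**
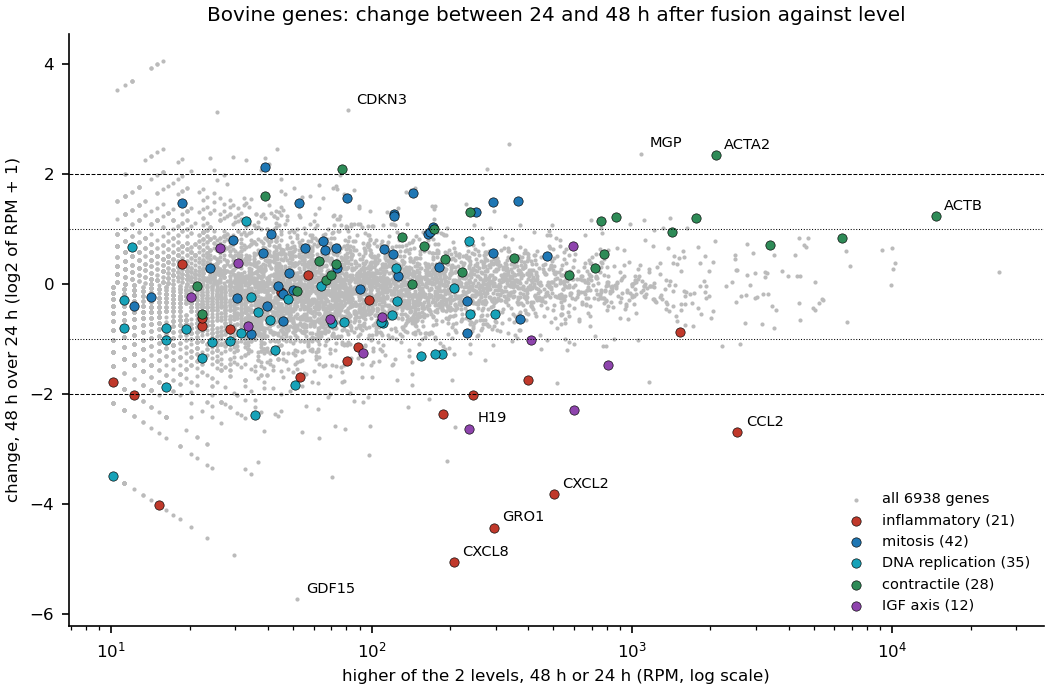
Change between the libraries, as log2 of (RPM + 1) at 48 h minus the same at 24 h, against the higher of the 2 levels (RPM, log axis) for all 6938 genes in grey, with members of 5 lists coloured and their number in the legend. Dotted lines mark 2-fold and dashed lines 4-fold; several chemokines lie far below the cloud, while ACTA2 and ACTB lie above it among the most abundant genes, and the streaks at the left are genes of few reads.

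The share of genes past 2-fold depended on level. Of 3567 genes whose higher level was between 10 and 50 RPM, 5.94% were higher and 16.3% lower at 48 h, with a median of 23 reads at 48 h and 19 at 24 h. Of 2277 genes between 50 and 200 RPM, 2.94% were higher and 5.67% lower. Among 397 genes at 500 RPM or more, 13 were higher and 14 lower. For these abundant genes, with a median of 1025 reads at 48 h and 767 at 24 h, counting error is small. A gene that reached 10 RPM in 1 library alone had to differ, so the counts in the lowest class describe the filter as well as the cells.

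Distance from the fibroblast was about as large at 48 h as at 24 h for the typical gene. The median absolute log2 distance from bFF was 0.552 at 48 h and 0.556 at 24 h, and 3595 of the 6938 genes (51.8%) lay nearer to bFF at 48 h. Among the 304 higher genes 185 went toward the bFF level and 119 away from it, and 140 lay on opposite sides of that level at the 2 times. Among the 740 lower genes 349 went toward and 391 away, and 385 lay on opposite sides. Of genes whose 24 h level lay at least 2-fold from bFF, 148 higher ones went toward and 31 away, and 282 lower ones went toward and 47 away. The 24 h library enters both the change and the distance, so these counts are a description. Genes at least 4-fold from bFF numbered 377 at 48 h and 430 at 24 h. Of the 430, 84 were within 2-fold of bFF at 48 h and 170 were still beyond 4-fold.

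**Figure D2:**
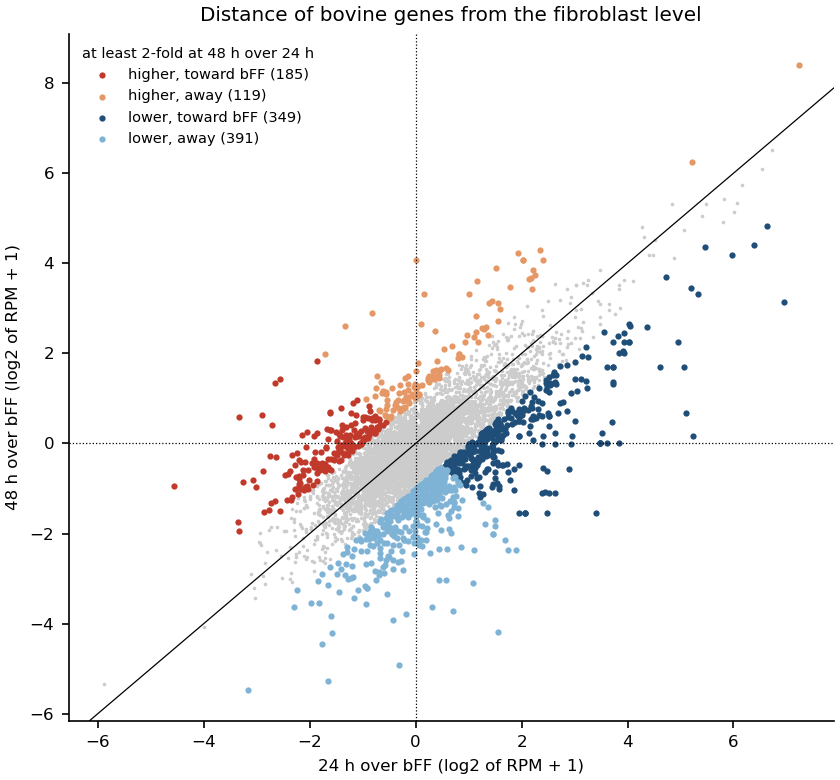
Each point is a bovine gene, placed by its log2 difference from bFF at 24 h (horizontal) and at 48 h (vertical), both on log2(RPM + 1), with genes past 2-fold between the times in colour and others in grey. By definition the 349 lower genes that went toward bFF (dark blue) stood above it at 24 h and the 185 higher genes that went toward it (red) stood below it; points nearest the horizontal dotted line reached the fibroblast level at 48 h.

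Several chemokines were far lower at 48 h than at 24 h. CXCL8, the neutrophil attractant interleukin 8 (chromosome 6, plus strand, start 90559882, build bosTau8), had 12 reads in bFF, 204 at 24 h, 7 at 48 h and 10 at 72 h. Its level was 5.26 RPM at 48 h, against 208 RPM at 24 h, which is 39.5-fold lower at 48 h (18.8 to 99.5), and close to the 4.56 RPM of bFF. GRO1, a relative that acts on the same receptor, had 20 reads in bFF, 290 at 24 h, 17 at 48 h and 8 at 72 h and was 23.1-fold lower at 48 h (14.2 to 40.2). CXCL2, of the same family, had 8 reads in bFF, 493 at 24 h, 46 at 48 h and 78 at 72 h. It was 14.5-fold lower at 48 h (10.7 to 20.1), yet at 34.5 RPM it stayed above its 3.04 RPM in bFF. These 3 genes lie on chromosome 6, GRO1 starting at 90822748 and CXCL2 at 90695494, and near-identical family members may share reads. CCL2, which attracts monocytes, had 214 reads in bFF, 2497 at 24 h, 522 at 48 h and 12 at 72 h. It was 6.48-fold lower at 48 h (5.90 to 7.14) and at 72 h lay below bFF. CXCL3 had 26 reads in bFF, 391 at 24 h, 158 at 48 h and 191 at 72 h and was 3.35-fold lower at 48 h (2.78 to 4.06). CXCL5 did not reach 2-fold, with 984 reads in bFF, 1499 at 24 h, 1117 at 48 h and 945 at 72 h, and CXCL16, with 136 reads at 48 h and 59 at 24 h, and CCL25, with 107 reads at 48 h and 53 at 24 h, had higher RPM at 48 h without reaching 2-fold.

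The inflammatory list held 21 measured genes of 41 listed. At 48 h 13 of them were at least 2-fold lower and 8 at least 4-fold lower, against 10.7% and 2.09% of all genes, and 0 were 2-fold higher. The median of the list was -1.69 (log2), against -0.14 over all genes, and 12 of the 13 went toward bFF. PTGS2, the inducible cyclooxygenase of prostaglandin synthesis, had 35 reads in bFF, 185 at 24 h, 48 at 48 h and 53 at 72 h and was 5.22-fold lower at 48 h (3.78 to 7.33). NFKBIA, the inhibitor that NF-kappaB itself induces, had 98 reads in bFF, 242 at 24 h, 80 at 48 h and 70 at 72 h and was 4.10-fold lower at 48 h (3.17 to 5.35). NFKB2, a subunit of the factor, was 3.36-fold lower at 48 h (1.99 to 5.87) on 21 reads at 48 h and 52 at 24 h. PTGS2 and NFKBIA thus stood at 48 h between their 24 h and bFF levels. VCAM1, an adhesion molecule for leukocytes, had 5 reads in bFF, 15 at 24 h, 0 at 48 h and 0 at 72 h. It was at least 6.78-fold lower at 48 h against the floor of 3 reads, and passed the 10 RPM limit through the 24 h library alone. SOD2, the mitochondrial superoxide dismutase, was the member of the 13 that went away from bFF, with 326 reads in bFF, 79 at 24 h, 40 at 48 h and 50 at 72 h. Not every member reached 2-fold: IL6 had 106 reads at 48 h and 96 at 24 h (79.6 and 97.7 RPM), against 9 in bFF, and CXCL12 had 25 reads at 48 h and 14 at 24 h, against 196 in bFF.

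Immediate-early genes, which cells switch on within minutes of a stimulus, were lower as a group but mostly away from bFF. Of 19 measured genes of 29 listed 10 were at least 2-fold lower, against 10.7% of all genes, and 0 higher, the median was -1.04, and 3 of the 10 went toward bFF. FOS had 2254 reads in bFF, 553 at 24 h, 327 at 48 h and 301 at 72 h. It was 2.29-fold lower at 48 h (2.00 to 2.64) after having stood below bFF at 24 h already. FOSB had 153 reads in bFF, 35 at 24 h, 9 at 48 h and 3 at 72 h and was 5.27-fold lower at 48 h (2.48 to 12.5), with 11.2% of its 9 reads at 48 h within the estimate of wrong assignment. EGR1 had 262 reads in bFF, 36 at 24 h, 18 at 48 h and 32 at 72 h, or 13.5 RPM at 48 h, against 36.6 RPM at 24 h. FOSB, MAFF and FOSL1 passed the 10 RPM limit through the 24 h library alone. MAFF and FOSL1, both above bFF at 24 h, went toward it, with 3 reads at 48 h and 14 at 24 h for MAFF and 7 reads at 48 h and 26 at 24 h for FOSL1. IER3, a survival factor, did not follow them: at 1379.9 RPM at 48 h, 1605 RPM at 24 h and 75.2 RPM in bFF it stayed far above the fibroblast.

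Feedback genes of the ERK pathway were few in reads. Of 12 measured members 4 were at least 2-fold lower, against 10.7% of all genes, and 0 higher, with a median of -0.74. HBEGF, a ligand of the EGF receptor, had 3 reads at 48 h and 16 at 24 h and was 7.23-fold lower at 48 h (2.07 to 38.7). DUSP5, a phosphatase that acts on nuclear ERK, had 0 reads in bFF, 15 at 24 h, 5 at 48 h and 6 at 72 h. HBEGF, DUSP5 and a further lower member, HMGA1, passed the 10 RPM limit through the 24 h library alone. PHLDA1 was 2.71-fold lower at 48 h (1.91 to 3.89) on 50 reads at 48 h and 100 at 24 h. AREG, another EGF receptor ligand, had 91 reads at 48 h and 88 at 24 h, and 52.0% of its reads at 24 h could be wrongly assigned.

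**Figure D3:**
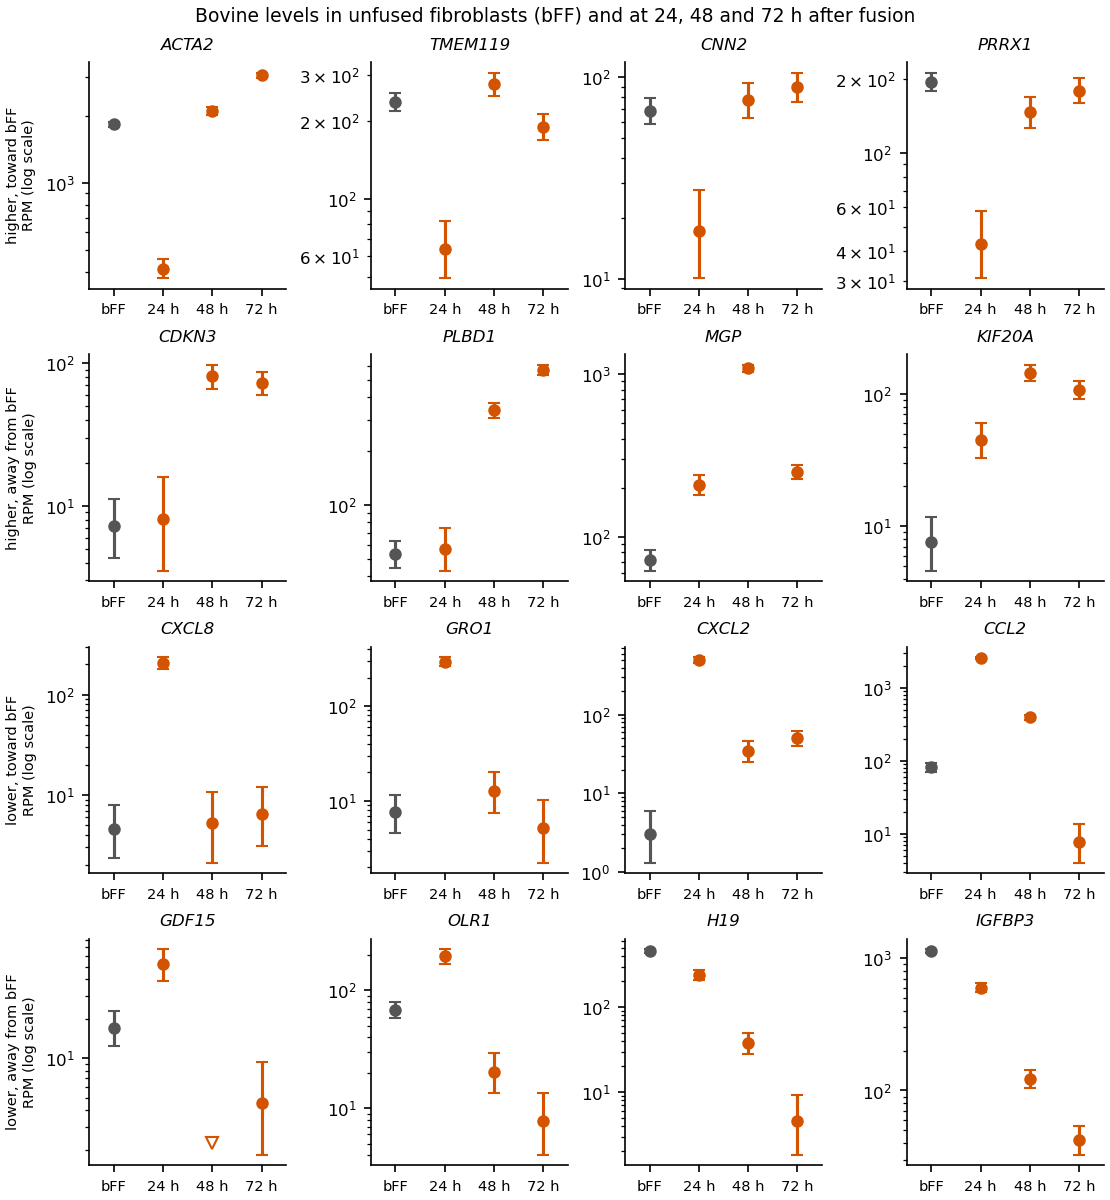
Levels (RPM, log axis, a separate scale in each panel) of 16 genes in bFF in grey and in heterokaryons at 24, 48 and 72 h in orange, with 95% exact Poisson intervals of the counts, 1 library each. The rows hold genes higher at 48 h than at 24 h toward bFF, higher away from bFF, lower toward bFF and lower away from bFF; the open triangle of GDF15 is the floor of 3 reads, since 0 reads were counted.

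The cell cycle genes split by phase. DNA replication genes were lower at 48 h: of 35 measured genes of 44 listed 12 were at least 2-fold lower, against 10.7% of all genes, and 1 was higher, the median was -0.70, and 12 of these 13 went toward bFF. Mitotic genes were mostly higher: of 42 measured genes of 50 listed 11 were at least 2-fold higher, against 4.38% of all genes, 0 were 2-fold lower, the median was 0.57, and 0 of the 11 went toward bFF. Of the 42 genes 29 stood above 0 and 13 below, with SPC25 (-0.90), HMMR (-0.89) and AURKA (-0.66) lowest. Relative to bFF (log2), the replication list had medians of 1.66, 0.73 and 1.05 and the mitosis list medians of 1.49, 2.08 and 1.93 at 24, 48 and 72 h. With TMM scaling 8 replication genes were 2-fold lower and 14 mitotic genes 2-fold higher, with medians of -0.56 and 0.71.

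Among the replication genes, FEN1, the nuclease that trims Okazaki fragments, had 26 reads in bFF, 35 at 24 h, 8 at 48 h and 24 at 72 h and was 5.93-fold lower at 48 h (2.70 to 14.8). ORC1, a subunit of the origin recognition complex, had 0 reads in bFF, 10 at 24 h, 0 at 48 h and 10 at 72 h. CHAF1A, which delivers histones to new DNA, had 5 reads at 48 h and 16 at 24 h. All 3 rest on few reads and passed the 10 RPM limit through the 24 h library alone. The MCM helicase subunits had more: MCM4 was 3.76-fold lower at 48 h (2.16 to 6.86) on 18 reads at 48 h and 50 at 24 h, MCM6 was 2.43-fold lower at 48 h (1.90 to 3.13) on 102 reads at 48 h and 183 at 24 h, and MCM3 was 2.37-fold lower at 48 h (1.40 to 4.09). MCM5, at 48.0 RPM at 48 h and 78.3 RPM at 24 h, did not reach 2-fold. RFC3 and RFC5, subunits of the clamp loader, were 2.48-fold lower at 48 h (1.89 to 3.28) and 2.43-fold lower at 48 h (1.88 to 3.15). PCNA, the clamp itself, had 205 RPM at 48 h, against 298 RPM at 24 h, a log2 difference of -0.54. RRM2, the regulated subunit of ribonucleotide reductase, hardly differed at 198 RPM at 48 h, against 208 RPM at 24 h, and both levels were far above the 24.7 RPM of bFF. CDC45, a helicase cofactor, was the member that was higher, with 44 reads at 48 h and 14 at 24 h.

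Among the mitotic genes, BUB1B, a spindle checkpoint kinase, had 16 reads in bFF, 8 at 24 h, 52 at 48 h and 41 at 72 h and was 4.80-fold higher at 48 h (2.26 to 11.7). KIF20A, a kinesin of cytokinesis, had 20 reads in bFF, 44 at 24 h, 192 at 48 h and 164 at 72 h and was 3.22-fold higher at 48 h (2.31 to 4.58). CENPA, the histone H3 variant of centromeres, had 22 reads in bFF, 26 at 24 h, 107 at 48 h and 127 at 72 h and was 3.04-fold higher at 48 h (1.96 to 4.86). In these 3 genes the counts at 48 and 72 h lay well above those at 24 h and in bFF. SPC24 of the kinetochore was 2.87-fold higher at 48 h (2.36 to 3.53), CENPF 2.50-fold higher at 48 h (1.99 to 3.16) and the spindle assembly factor TPX2 2.39-fold higher at 48 h (1.73 to 3.35). BIRC5, which encodes survivin, was 2.84-fold higher at 48 h (2.28 to 3.57), and MYBL2, which encodes B-MYB, 2.87-fold higher at 48 h (1.69 to 5.12), with 11.9% and 27.4% of their reads at 24 h within the estimate of wrong assignment. Members with little difference included CDK1, the mitotic kinase (30.0 RPM at 48 h, against 39.7 RPM at 24 h), and PLK1 (25.5 RPM at 48 h, against 30.5 RPM at 24 h). Genes outside the list with the same course were SKA3, a kinetochore component (23, 25, 114 and 140 reads in bFF and at 24, 48 and 72 h), and SHCBP1 (20, 21, 98 and 104 reads in bFF and at 24, 48 and 72 h). CDKN3, a phosphatase of cyclin-dependent kinases, differed most among genes at 50 RPM or more that were higher, with 19 reads in bFF, 8 at 24 h, 108 at 48 h and 112 at 72 h, 9.96-fold higher at 48 h (4.88 to 23.7).

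**Figure D4:**
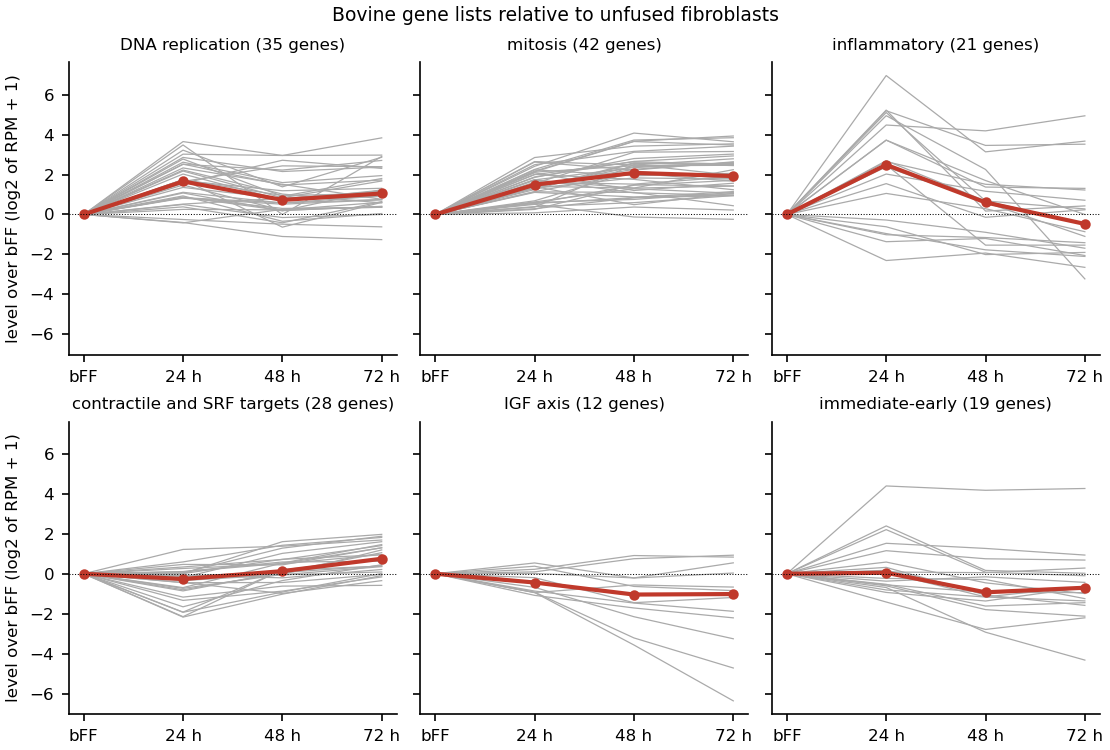
Members of 6 lists as log2(RPM + 1) relative to bFF (vertical axis) in bFF and at 24, 48 and 72 h (horizontal axis), each member a grey line and the list median red, with the number of measured members in each title. The replication median stands at 1.66, 0.73 and 1.05 at 24, 48 and 72 h and the mitosis median at 1.49, 2.08 and 1.93, while the inflammatory median runs down across 2.49, 0.60 and -0.47.

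Actin cytoskeleton genes were also higher at 48 h. Of 28 measured contractile genes and targets of the factor SRF, of 36 listed, 9 were at least 2-fold higher, against 4.38% of all genes, and 0 lower, the median was 0.62, and 6 of the 9 went toward bFF. ACTA2, smooth muscle actin, the marker of myofibroblasts (chromosome 26, minus strand, start 10662363, build bosTau8), had 4829 reads in bFF, 405 at 24 h, 2800 at 48 h and 4689 at 72 h. It was 5.10-fold higher at 48 h (4.59 to 5.68): its level of 2102 RPM at 48 h lay slightly above, and that of 412 RPM at 24 h far below, the 1833 RPM of bFF. CNN2, a calponin, had 180 reads in bFF, 17 at 24 h, 103 at 48 h and 138 at 72 h and was 4.47-fold higher at 48 h (2.66 to 7.97). ACTG2, a second smooth muscle actin whose reads may be shared with ACTA2, was 2.50-fold higher at 48 h (1.98 to 3.19), at 239 RPM at 48 h, 95.6 RPM at 24 h and 304 RPM in bFF. The tropomyosin genes TPM1 and TPM2 were 2.35-fold higher at 48 h (2.09 to 2.65) and 2.22-fold higher at 48 h (1.96 to 2.52). TAGLN, which encodes transgelin, stood just under the limit at 1420.4 RPM at 48 h, against 738 RPM at 24 h, with 1340.0 RPM in bFF.

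ACTB, the ubiquitous beta actin, went away from bFF: its 19573 reads at 48 h and 6141 at 24 h made it 2.35-fold higher at 48 h (2.29 to 2.42), with 14695 RPM at 48 h, 6249 RPM at 24 h and 6037 RPM in bFF. TPM4 and the filamin gene FLNC behaved alike, TPM4 with 1769.5 RPM at 48 h, 765 RPM at 24 h and 872 RPM in bFF and FLNC with 39.0 RPM at 48 h, 12.2 RPM at 24 h and 12.1 RPM in bFF. HSPB1, a small heat shock protein that binds actin, had 1397 RPM at 48 h, 606 RPM at 24 h and 605 RPM in bFF. Members with little difference were VCL, which encodes vinculin (66.8 RPM at 48 h, against 63.1 RPM at 24 h), and ZYX, which encodes zyxin (69.8 RPM at 48 h, against 62.1 RPM at 24 h). Among targets of YAP, ANKRD1 was 2.76-fold higher at 48 h (2.16 to 3.57) with 542 reads in bFF, 82 at 24 h, 307 at 48 h and 703 at 72 h, CYR61 was 2.13-fold higher at 48 h (1.72 to 2.66), and CTGF stood at 1215 RPM at 48 h, against 616 RPM at 24 h. The list of YAP and TGF-beta targets had 2 of 16 genes higher and 3 lower, against 4.38% and 10.7% of all genes. TGFB3, a TGF-beta ligand, was among the lower, with 29 reads in bFF, 84 at 24 h, 25 at 48 h and 14 at 72 h. Of the skeletal muscle markers, MYOD1 and MYOG were at 0 reads and MYF5 had 17 reads at 48 h and 8 at 24 h, against 2 in bFF.

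Some genes of mesenchymal identity stood nearer to bFF at 48 h. PRRX1, a homeobox factor of limb mesenchyme and dermis, had 514 reads in bFF, 42 at 24 h, 195 at 48 h and 277 at 72 h and was 3.43-fold higher at 48 h (2.44 to 4.90). TMEM119, a membrane protein known from osteoblasts and microglia, had 622 reads in bFF, 63 at 24 h, 370 at 48 h and 292 at 72 h and was 4.33-fold higher at 48 h (3.31 to 5.75). VIM, the intermediate filament vimentin, had 4748 RPM at 48 h, 2654 RPM at 24 h and 4736 RPM in bFF, under 2-fold. ZEB1, a repressor of epithelial genes, was 2.35-fold higher at 48 h (1.17 to 5.12) on 35 reads at 48 h and 11 at 24 h, whereas its relative ZEB2 had 8 reads at 48 h and 14 at 24 h and was 2.37-fold lower at 48 h (0.929 to 6.53), an interval that includes 1. The fibroblast identity list had a median of 0.11, against -0.14 over all genes, and 12 of its 18 members stood above 0 and 6 below. Few members passed 2-fold: 2 on the higher side and 2 on the lower side, where all genes had 4.38% and 10.7%. HOXA5 differed most of the list, with 38 reads in bFF, 13 at 24 h, 4 at 48 h and 12 at 72 h. It was 4.40-fold lower at 48 h (1.36 to 18.5), away from bFF, and passed the 10 RPM limit through the 24 h library alone. TMEM119 is not a member of the list. PDGFRA, the PDGF receptor, remained at 67.6 RPM at 48 h, 59.0 RPM at 24 h and 433 RPM in bFF, and FAP at 101 RPM at 48 h, 97.7 RPM at 24 h and 348 RPM in bFF.

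Matrix genes did not move together. Of 25 measured collagens and their enzymes 0 were at least 2-fold higher and 3 lower, a share near the 10.7% of all genes, at a median of -0.25. The lower ones were the basement membrane collagens COL18A1 (9 reads at 48 h and 30 at 24 h) and COL4A1 (57 reads at 48 h and 118 at 24 h) and the fibril-associated COL12A1 (115 reads at 48 h and 180 at 24 h), each away from bFF. COL1A2 stood at 3995 RPM at 48 h, 3588 RPM at 24 h and 6600.3 RPM in bFF, and COL3A1 at 2616 RPM at 48 h, 3451 RPM at 24 h and 7349 RPM in bFF. Of 33 glycoproteins and proteoglycans 3 were higher and 6 lower, against 4.38% and 10.7% of all genes. MGP, a calcification inhibitor, had 189 reads in bFF, 204 at 24 h, 1443 at 48 h and 386 at 72 h and was 5.22-fold higher at 48 h (4.50 to 6.07), a level that 72 h did not keep. THBS1, which activates latent TGF-beta, was 2.71-fold higher at 48 h (2.04 to 3.65) at 171 RPM at 48 h, 63.1 RPM at 24 h and 427 RPM in bFF, while its paralog THBS2 was 2.83-fold lower at 48 h (1.85 to 4.43). OGN, which encodes osteoglycin, had 6944 reads in bFF, 759 at 24 h, 469 at 48 h and 409 at 72 h. MFAP4, a microfibril protein, had 244 reads in bFF, 62 at 24 h, 11 at 48 h and 17 at 72 h, of which 45.7% at 48 h and 11.4% at 24 h could be wrongly assigned.

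Several genes of the insulin-like growth factor axis were lower at 48 h and lay further from the fibroblast level. Of 12 measured genes of 20 listed 5 were at least 2-fold lower, against 10.7% of all genes, and 0 higher, the median was -0.69, and 0 of the 5 went toward bFF. IGF2, the fetal growth factor that is expressed from the paternal allele in mouse and cattle, had 3439 reads in bFF, 799 at 24 h, 390 at 48 h and 209 at 72 h and was 2.78-fold lower at 48 h (2.46 to 3.14). H19, the noncoding RNA of the same imprinted domain, expressed from the maternal allele, had 1203 reads in bFF, 233 at 24 h, 50 at 48 h and 7 at 72 h and was 6.32-fold lower at 48 h (4.64 to 8.75). Both lie on chromosome 29, IGF2 starting at 50046626 and H19 at 50150775 on the plus strand of bosTau8, and each had a lower RPM at 48 h than at 24 h and at 72 h than at 48 h. IGFBP3, the main carrier of IGF in serum, had 2998 reads in bFF, 589 at 24 h, 162 at 48 h and 65 at 72 h and was 4.93-fold lower at 48 h (4.13 to 5.90). IGFBP2 and IGFBP4 were 2.42-fold lower at 48 h (1.70 to 3.48) and 2.02-fold lower at 48 h (1.73 to 2.37). IGFBP6, which prefers IGF2, went the other way without reaching 2-fold, with 595 RPM at 48 h, against 368 RPM at 24 h, and IGFBP5 had 35 reads at 48 h and 16 at 24 h. GRB10, an imprinted adaptor of the insulin receptor, had 23 reads at 48 h and 20 at 24 h.

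Complement genes were listed after their values had been seen, and their lower members lay away from bFF. Of 9 measured members of 20 listed 4 were at least 2-fold lower, against 10.7% of all genes, and 0 higher, with 0 of the 4 toward bFF. C4A, the fourth component, had 488 reads in bFF, 53 at 24 h, 10 at 48 h and 10 at 72 h and was 7.18-fold lower at 48 h (3.62 to 15.8). SERPING1, the inhibitor of C1, had 1107 reads in bFF, 136 at 24 h, 38 at 48 h and 50 at 72 h and was 4.85-fold lower at 48 h (3.36 to 7.15). The C1 protease genes C1R and C1S were 4.29-fold lower at 48 h (2.82 to 6.70) and 2.71-fold lower at 48 h (2.02 to 3.67). All 4 stood below bFF at 24 h already. The membrane regulators CD46 (177 reads at 48 h and 127 at 24 h) and CD59 (64 reads at 48 h and 36 at 24 h) were not 2-fold lower.

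Several stress genes differed between 48 h and 24 h. GDF15, a secreted stress cytokine, had 45 reads in bFF, 51 at 24 h, 0 at 48 h and 7 at 72 h. It was at least 23.0-fold lower at 48 h than at 24 h against the floor of 3 reads (18.1-fold at the lower end of the exact interval), the largest log2 difference of all genes measured. HSPA1A, the inducible HSP70, had 86 reads in bFF, 97 at 24 h, 21 at 48 h and 53 at 72 h and was 6.26-fold lower at 48 h (3.88 to 10.6), while HSF1, the factor that drives it, was 2.18-fold higher at 48 h (1.51 to 3.20) on 118 reads at 48 h and 40 at 24 h. The heat shock and chaperonin list had 2 of 33 genes higher and 1 lower, against 4.38% and 10.7% of all genes. HSPA5, the HSP70 of the endoplasmic reticulum, had 4480 reads in bFF, 2177 at 24 h, 1360 at 48 h and 3038 at 72 h and was 2.17-fold lower at 48 h (2.03 to 2.32). MDM2, a ubiquitin ligase, had 377 reads in bFF, 163 at 24 h, 51 at 48 h and 103 at 72 h and was 4.33-fold lower at 48 h (3.15 to 6.06). GADD45G was 4.57-fold lower at 48 h (2.94 to 7.30), and CDKN1A, the p21 inhibitor, stood at 92.3 RPM at 48 h, against 105 RPM at 24 h.

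Some pluripotency genes that had reads at 24 h were lower at 48 h. POU5F1, which encodes OCT4 and passed the 10 RPM limit through the 24 h library alone, was 10.4-fold lower at 48 h (3.14 to 54.1) on 3 reads at 48 h and 23 at 24 h, toward its 0 reads in bFF. SOX2 and NANOG had 0 reads at both times, where the floor of 3 reads stands at 2.25 RPM at 48 h and 3.05 RPM at 24 h and the exact Poisson limits at 2.77 and 3.75 RPM at 48 and 24 h. Of 6 measured members of 31 listed 4 were at least 2-fold lower, against 10.7% of all genes, and 0 higher. In 3 of the 6, KLF4, TDH and TFCP2L1, wrongly assigned reads would exceed 10%. CD9, a tetraspanin common to stem cells and other cells, had 1130 reads in bFF, 2560 at 24 h, 1642 at 48 h and 1725 at 72 h and was 2.11-fold lower at 48 h (1.99 to 2.25). KLF5 was 2.59-fold lower at 48 h (1.19 to 5.94) on 11 reads at 48 h and 21 at 24 h. It too passed the 10 RPM limit through the 24 h library alone. KLF4 had 52 reads at 48 h and 80 at 24 h with 28.2% of its 24 h reads within the estimate. EPCAM, an adhesion molecule of epithelia and stem cells, had 3 reads in bFF, 23 at 24 h, 2 at 48 h and 0 at 72 h. It was 15.6-fold lower at 48 h (3.85 to 136). In the epithelial list 4 of 10 genes were at least 2-fold lower, against 10.7% of all genes, and 0 higher. Besides EPCAM these were CLDN6 (12 reads at 48 h and 24 at 24 h) and the keratin genes KRT7 (7 reads at 48 h and 13 at 24 h) and KRT17 (2 reads at 48 h and 11 at 24 h). All 4 passed the 10 RPM limit through the 24 h library alone. KRT8 (571 RPM at 48 h, against 623 RPM at 24 h) and KRT19 (506 RPM at 48 h, against 512 RPM at 24 h) hardly differed.

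Some interferon response genes with 0 reads at 24 h had reads at 48 h. Of 17 measured genes of 46 listed 5 were at least 2-fold higher, against 4.38% of all genes, and 2 lower, a share near the 10.7% of all genes, with a median of 0.52, and in 4 of the 17 wrongly assigned reads would exceed 10%. ISG15, a ubiquitin-like modifier, had 6 reads in bFF, 0 at 24 h, 16 at 48 h and 3 at 72 h. MX1, an antiviral GTPase, had 7 reads in bFF, 0 at 24 h, 16 at 48 h and 2 at 72 h, and OAS1Y, an oligoadenylate synthetase, had 60 reads in bFF, 0 at 24 h, 15 at 48 h and 4 at 72 h. Against the floor of 3 reads these were at least 3.94-fold, 3.94-fold and 3.69-fold higher at 48 h, and they passed the 10 RPM limit through the 48 h library alone. All 3 had fewer reads at 72 h than at 48 h. EIF2AK2, the kinase PKR, was 3.09-fold higher at 48 h (1.57 to 6.61) on 46 reads at 48 h and 11 at 24 h. IRF1, which is also an NF-kappaB target, was 3.08-fold lower at 48 h (1.46 to 6.94) on 11 reads at 48 h and 25 at 24 h.

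Chromatin modifiers included several lower genes. Of 43 measured members 9 were at least 2-fold lower, against 10.7% of all genes, and 2 higher, a share near the 4.38% of all genes, with a median of -0.11 near that of all genes. With TMM scaling 5 were 2-fold lower and 3 higher. In 8 of the 43 wrongly assigned reads would exceed 10%. DNMT1, the maintenance DNA methyltransferase, had 168 reads in bFF, 141 at 24 h, 61 at 48 h and 105 at 72 h and was 3.13-fold lower at 48 h (2.30 to 4.30). UHRF1, which guides it to replicated DNA, had 15 reads at 48 h and 24 at 24 h. SUZ12 and EZH2, core subunits of polycomb complex PRC2, were 3.48-fold lower at 48 h (2.25 to 5.50) and 2.31-fold lower at 48 h (1.23 to 4.49), with 15.1% of the SUZ12 reads at 48 h within the estimate of wrong assignment. EHMT2, a histone methyltransferase, had 3 reads at 48 h and 12 at 24 h, and KDM4A, a histone demethylase, had 2 reads at 48 h and 10 at 24 h. EHMT2 and KDM4A passed the 10 RPM limit through the 24 h library alone. The higher members were HMGN2, a nucleosome-binding protein (1315 RPM at 48 h, against 650.2 RPM at 24 h, with 16.1% of the 24 h reads within the estimate), and SIRT1, a deacetylase (17 reads at 48 h and 5 at 24 h). SIRT1 passed the limit through the 48 h library alone.

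**Figure D5:**
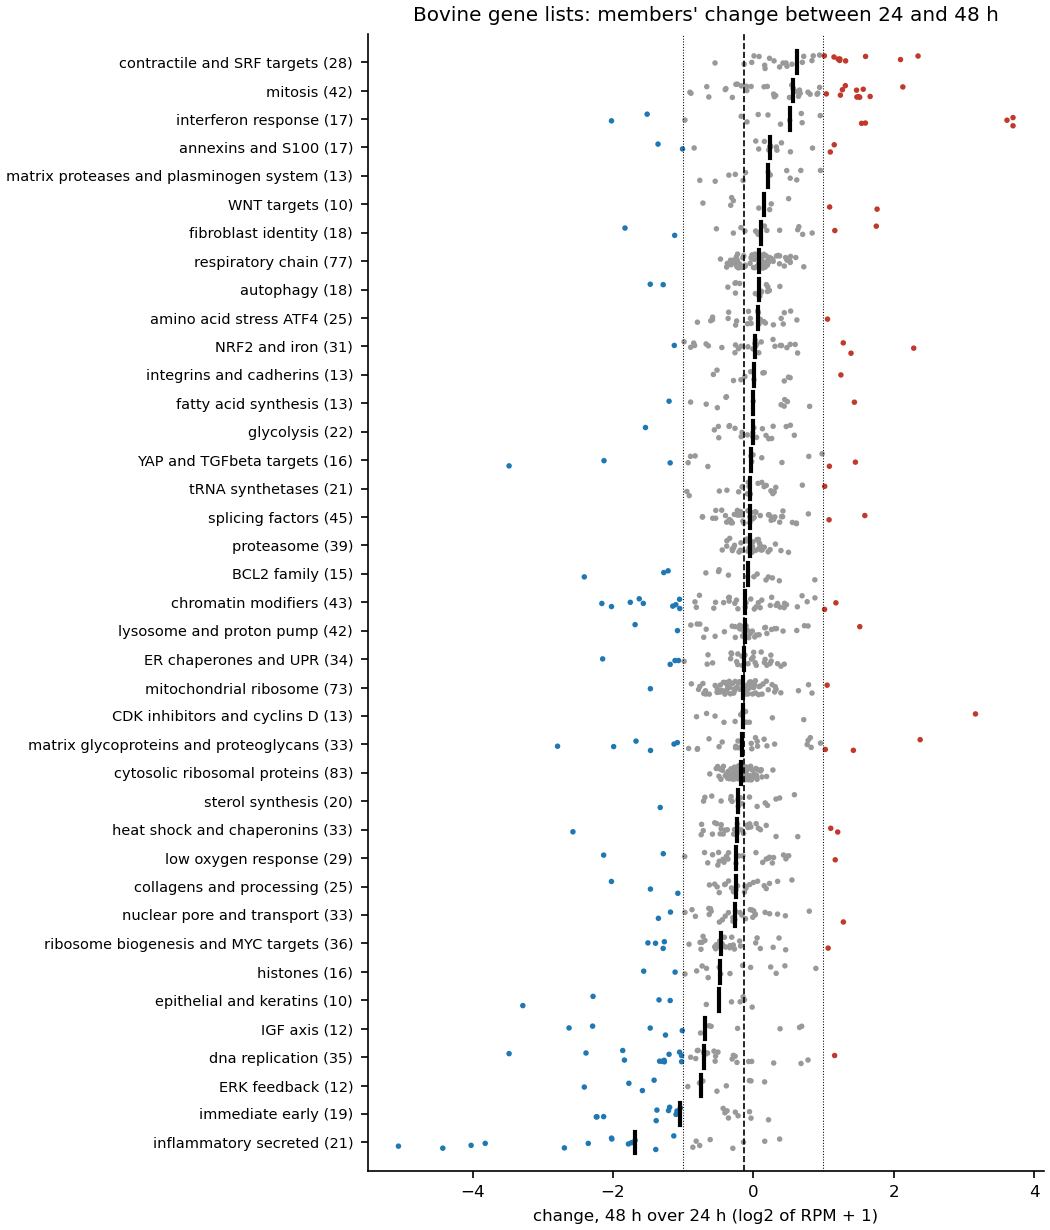
Change between the libraries, log2(RPM + 1) at 48 h minus the same at 24 h (horizontal axis), of every measured member of the lists shown, which have 10 or more of them, with their number in parentheses, red where at least 2-fold higher, blue where at least 2-fold lower and grey otherwise. Thick bars are list medians, the dashed line the median of all genes at -0.14 and the dotted lines 2-fold; contractile and mitosis lists lie at the top and inflammatory and immediate-early lists at the bottom.

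Most genes of the large housekeeping lists did not pass 2-fold. Over all genes the median was -0.14 (log2), with 4.38% at least 2-fold higher and 10.7% lower. Among 83 cytosolic ribosomal proteins and elongation factors 0 passed 2-fold either way, with a median of -0.18, and among 77 respiratory chain genes and 39 proteasome genes 0 passed, with medians of 0.08 and -0.05. Of 73 mitochondrial ribosomal proteins 1 was higher and 1 lower. Ribosome biogenesis genes and MYC targets had a median of -0.46, below that of all genes, with 29 of 36 members below 0. At least 2-fold lower were 4 of the 36, a share near the 10.7% of all genes. They were led by CAD, which carries out the first steps of pyrimidine synthesis (35 reads at 48 h and 75 at 24 h). Glycolysis, whose median stood above bFF at both times (median log2 distance 2.10 at 48 h and 2.02 at 24 h), had 1 of 22 genes lower, ENO2 (15 reads at 48 h and 34 at 24 h), and 0 higher. Of 29 genes induced by low oxygen 1 was higher and 2 lower. The higher one was NDUFA4L2, a mitochondrial protein, with 6 reads in bFF, 485 at 24 h, 1478 at 48 h and 1641 at 72 h, 2.25-fold higher at 48 h (2.03 to 2.50). Sterol synthesis stayed below bFF, by a median of -1.64 at 48 h and -1.63 at 24 h (log2), with 1 of 20 genes lower, TM7SF2 (10 reads at 48 h and 20 at 24 h, with 10.0% of those at 48 h within the estimate of wrong assignment).

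Other genes with large differences stood outside the lists. PLBD1, a phospholipase B-like protein, had 140 reads in bFF, 56 at 24 h, 450 at 48 h and 878 at 72 h and was 5.93-fold higher at 48 h (4.48 to 7.97). ENC1, an actin-binding protein, was 3.58-fold higher at 48 h (2.19 to 6.12) on 97 reads at 48 h and 20 at 24 h. SFXN3, a mitochondrial carrier, SH3BGR and C25H7orf50 stood above their bFF levels at 48 h and below them at 24 h, with 157, 20, 95 and 110 reads in bFF and at 24, 48 and 72 h for SFXN3, 124, 17, 84 and 114 reads in bFF and at 24, 48 and 72 h for SH3BGR and 160, 18, 101 and 61 reads in bFF and at 24, 48 and 72 h for C25H7orf50. Lower genes included OLR1, a receptor for oxidized LDL, with 180 reads in bFF, 192 at 24 h, 27 at 48 h and 12 at 72 h, 9.64-fold lower at 48 h (6.42 to 15.0). PLTP, a phospholipid transfer protein, had 32 reads in bFF, 69 at 24 h, 7 at 48 h and 5 at 72 h and was 13.4-fold lower at 48 h (6.15 to 34.5), and SYNGR2, a vesicle protein, was 9.29-fold lower at 48 h (5.28 to 17.6). OLR1 and PLTP lay below their bFF levels at 48 h and above them at 24 h. RENBP, the renin-binding protein, had 630 reads in bFF, 78 at 24 h, 16 at 48 h and 23 at 72 h. CKB, the brain-type creatine kinase, had 11 reads in bFF, 505 at 24 h, 196 at 48 h and 226 at 72 h and was 3.49-fold lower at 48 h (2.96 to 4.14). TFPI2, a protease inhibitor of the matrix, had 1099 reads in bFF, 1139 at 24 h, 449 at 48 h and 203 at 72 h and was 3.44-fold lower at 48 h (3.08 to 3.84).

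The mouse transcripts of the same libraries offer values beside the bovine ones, and no difference between the species was tested. Of the 6938 genes 5306 had a mouse gene of the same symbol at 10 RPM or more at 48 or 24 h. Over these the median log2 difference was -0.11 in bovine and -0.03 in mouse transcripts, and 1.77% of the mouse genes were 2-fold higher and 4.17% 2-fold lower at 48 h. List medians in mouse were -0.48 for 22 contractile genes, 0.27 for 35 replication genes and 0.09 for 41 mitotic genes, beside 0.62, -0.70 and 0.57 over all measured bovine members. They were -0.94 for 8 inflammatory genes and -0.84 for 15 immediate-early genes, beside -1.69 and -1.04 in bovine transcripts. Single genes ran both ways: mouse Ccl2 differed by -1.71 and mouse Igfbp3 by -1.69 (log2, 48 h minus 24 h), beside -2.69 for bovine CCL2 and -2.29 for bovine IGFBP3. Mouse H19 and Igf2 differed by 0.85 and 0.92, beside -2.63 and -1.47 for bovine H19 and IGF2. Mouse H19 stood at 7.51 RPM at 48 h and 3.71 RPM at 24 h, under the 10 RPM limit at both times, so its value rests on few reads. Mouse Tagln differed by -2.42, beside 0.94 for bovine TAGLN.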

How the data were processed

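RNA of 5 samples was sequenced, 1 library each of 200 sorted cells, from cDNA of polyadenylated RNA made with 14 cycles per the labels' protocols. Per the file headers, the authors deposited whole read counts for bovine RefSeq transcripts in each library. Beside them they deposited RPM, which equalled these counts scaled to the column total within 4e-12. The submitters' processing notes name the builds bosTau8, GRCm38 and mm10. Which aligner and counter were used, and how reads were split by species, is not given in the sources used here. Counts of 1 never occur, so a 0 may stand for 1 read. Here 14234 transcripts were summed to 13923 genes by name, 23 of 23 names turned into dates were restored by RefSeq number, and 1 mouse row of totals was dropped. Starts are counted from 1. Whether counting used strand is not known here, which leaves overlapping genes and close paralogs uncertain.

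Levels at 48 h and 24 h were compared by size on log2(RPM + 1), with genes at 10 RPM or more in 1 of the 2. Level intervals are exact Poisson and ratio intervals exact binomial, at 95%, and a fold against 0 uses a floor of 3 reads and leaves out the counting error of the other library. Wrong assignment was estimated from mESC reads in the bovine table, scaled by the mouse reads of each heterokaryon library, which assumes that mouse genes kept their mESC level. The members, the 46 gene lists and the rule for named genes were chosen with earlier results of these data known, and 1 list, complement, was added after its values were seen. The rule took the 6 largest differences in each of 4 classes (higher or lower, toward or away from bFF) at 50 RPM or more, the 3 largest of each list, the 6 highest and 6 lowest at 500 RPM or more, and POU5F1, SOX2 and NANOG; not all 155 genes it took are reported, and other list members were named after their values were seen. Some genes and several of the lists are not reported here. The script was tested on simulated data. Tools were Python 3.11.15, pandas 2.3.3, numpy 2.4.6, scipy 1.17.1, matplotlib 3.10.9 and, for scaling factors only, R 4.3.3 with edgeR 4.0.16 and DESeq2 1.42.0.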

Additional observations from a re-analysis of the deposited data

Results flagged for a closer look

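ANXA3, which encodes annexin A3, a calcium-dependent membrane-binding protein, went opposite ways in the bovine and mouse transcripts of the same libraries. Bovine ANXA3 was higher at 48 h than at 24 h by 1.10 (log2 of RPM + 1), with 161 reads at 48 h and 55 at 24 h, against 490 in bFF. Mouse Anxa3 differed by -1.38 on the same scale. Among the named genes at 50 RPM or more in both species, it was the 1 gene past 2-fold in opposite directions. Opposite signs were not particular to it. The annexin and S100 list had a median of 0.24 over 17 bovine genes and -0.78 over 12 mouse genes, and the contractile list medians of 0.62 and -0.48. There is 1 library for each time, and the difference between the species was not tested.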

How the results depend on the processing

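Of the values of named genes under the alternatives, 904 stayed within their counting interval, 18 moved out of it and 0 reversed. Of the medians of the lists 397 stayed within the range of their middle members, 22 moved and 2 reversed. Adding 5 RPM in place of 1 gave 201 higher and 479 lower genes past 2-fold (122 higher toward and 79 away from bFF, 240 lower away) and 10 and 32 past 4-fold. A limit of 50 RPM gave 92 and 160 (51 and 41 of the higher, 78 and 82 of the lower, toward and away) and 6 and 28 past 4-fold, and no limit gave 899 and 1708 (501 and 398, 880 and 828) and 204 and 683. The 8-fold limit left 12 and 44. With a 24 h level at least 2-fold from bFF, 148 higher and 282 lower genes went toward bFF and 31 and 47 away. Under TMM and DESeq2 factors the median of the lysosome list turned to 0.0198 and 0.0200 (-0.12 with library totals), as the median of all genes shifted by 0.155. Depth limits genes under 50 RPM most, since 10 RPM is about 10 reads at 24 h. No paired analysis was possible because each group is 1 library, and for the same reason no replicate could be left out.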
